A study of Mus musculus with 4 samples.

Results

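Cytochrome P450 enzymes are haem-containing monooxygenases, and the genes described are the 93 mouse protein-coding genes whose symbol is Cyp followed by a family number, subfamily letters and a gene number, out of 21631 protein-coding genes in the mm10 gene table. Of these, 72 belong to the families Cyp2, Cyp3 and Cyp4, whose members mostly sit in tandem clusters and include the main drug-metabolising enzymes of liver. The other 21 belong to families that act mainly in steroid, bile acid, vitamin D and retinoid metabolism, beside the xenobiotic family 1 and the orphan Cyp20a1. The data are a CUT&Tag profile of Fos, a subunit of the stress- and growth-induced transcription factor AP-1, in wild-type mouse colonic epithelium. CUT&Tag uses an antibody to bring the transposase Tn5 to the DNA around a protein. The 2 colitis recovered libraries came from mice given 1 to 1.5% dextran sodium sulfate (DSS), which injures the colon lining, for 3 cycles of 7 days separated by 10 days, and killed 22 days after the last cycle. The 2 healthy control libraries came from mice labelled only as controls. Mucosa of all 4 libraries was scraped after EDTA treatment and carried 1 batch label.

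The values come from 1 MACS2 peak list for the whole series, so no value below separates colitis recovered from healthy colon, and none has a replicate error or a test between groups. A summit is the position of highest signal of a called peak. Its fold is the authors' enrichment over background, and its pileup, the number of overlapping fragments, was read from that fold. The list held 178981 summits with a median fold of 6.73 and a median pileup of 27 fragments. Depth per library is unknown, and no library without the Fos antibody was used here, so cutting of open chromatin by Tn5 without Fos was not measured. The profile is of bulk tissue, in which fewer cells with Fos at a site and less signal per cell cannot be told apart. Marker genes were chosen with earlier results of these data known, so their summits describe the list and do not test the tissue label. The epithelial marker genes were Cdh1, Epcam, Krt8, Krt18, Krt20, Cdx2 and Vil1. All 7 carried summits at most 1 kb from the start or end of the gene, with folds from 18.8 to 173. Such a boundary summit was present at 62.0% of all protein-coding genes. Among 4 hepatocyte genes, Alb and Apoa1 had weak boundary summits, with folds of 4.81 and 10.1, and Ttr and Serpina1a had none. Of the marker genes of other mucosal cells, Col1a1 had a boundary summit, with a fold of 6.98, and Ptprc, Cd3e and Pecam1 had none. Inside the gene or within 50 kb, epithelial genes had 37 to 98 summits, hepatocyte genes 2 to 29 and genes of other mucosal cells 0 to 32. Krt8 and Krt18 are neighbours, so their windows share summits.

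P450s oxidise fatty acids, sterols, vitamins and foreign compounds, drawing electrons from the reductase Por in the endoplasmic reticulum or from ferredoxin in mitochondria. Liver carries most of the xenobiotic enzymes, while the intestinal epithelium expresses a smaller set that meets dietary and microbial compounds first. Nuclear receptors and the aryl hydrocarbon receptor control many of these genes, and inflammation is known to lower the expression of several.

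The promoters below are shown because they show Fos summits with and without an AP-1 motif nearby. They are the RefSeq sequences (GRCm38.p6, the assembly that mm10 names) from 250 bases before to 50 bases after a start of transcription, written 5′ to 3′, and the capitals mark matches to the AP-1 motif TGANTCA.
Cyp3a13, chr5:137921570-137921869, minus strand: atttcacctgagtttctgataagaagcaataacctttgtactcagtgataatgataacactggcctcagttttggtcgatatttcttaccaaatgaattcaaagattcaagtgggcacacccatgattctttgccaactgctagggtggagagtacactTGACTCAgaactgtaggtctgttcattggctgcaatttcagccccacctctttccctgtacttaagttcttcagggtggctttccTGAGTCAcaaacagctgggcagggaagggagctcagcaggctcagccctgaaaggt
Cyp4b1, chr4:115647672-115647971, minus strand: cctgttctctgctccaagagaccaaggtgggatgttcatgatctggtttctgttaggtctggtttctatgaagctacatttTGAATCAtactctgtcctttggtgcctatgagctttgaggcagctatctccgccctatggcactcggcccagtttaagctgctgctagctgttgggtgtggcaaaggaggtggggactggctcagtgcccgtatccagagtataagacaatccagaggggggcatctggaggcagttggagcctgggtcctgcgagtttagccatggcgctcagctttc
Cyp4f16, chr17:32536307-32536606, plus strand: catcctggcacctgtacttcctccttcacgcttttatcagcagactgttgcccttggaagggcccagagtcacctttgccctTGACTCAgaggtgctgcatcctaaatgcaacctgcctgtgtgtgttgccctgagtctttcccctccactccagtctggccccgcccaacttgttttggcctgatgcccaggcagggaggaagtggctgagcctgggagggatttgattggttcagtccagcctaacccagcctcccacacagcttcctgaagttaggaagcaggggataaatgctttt
Cyp2c55, chr19:39006769-39007068, plus strand: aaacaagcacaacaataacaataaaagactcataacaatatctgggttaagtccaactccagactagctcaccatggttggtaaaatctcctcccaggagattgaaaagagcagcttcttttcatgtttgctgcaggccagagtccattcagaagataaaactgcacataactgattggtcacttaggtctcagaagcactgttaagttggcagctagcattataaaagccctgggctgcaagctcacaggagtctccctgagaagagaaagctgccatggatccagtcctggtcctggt
Cyp2c65, chr19:39060756-39061055, plus strand: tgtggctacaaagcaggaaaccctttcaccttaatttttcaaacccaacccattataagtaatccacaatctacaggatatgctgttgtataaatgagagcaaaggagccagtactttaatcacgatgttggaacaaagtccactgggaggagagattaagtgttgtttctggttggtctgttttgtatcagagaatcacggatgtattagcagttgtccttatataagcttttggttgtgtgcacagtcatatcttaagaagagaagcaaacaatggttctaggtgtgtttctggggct
Cyp46a1, chr12:108334066-108334365, plus strand: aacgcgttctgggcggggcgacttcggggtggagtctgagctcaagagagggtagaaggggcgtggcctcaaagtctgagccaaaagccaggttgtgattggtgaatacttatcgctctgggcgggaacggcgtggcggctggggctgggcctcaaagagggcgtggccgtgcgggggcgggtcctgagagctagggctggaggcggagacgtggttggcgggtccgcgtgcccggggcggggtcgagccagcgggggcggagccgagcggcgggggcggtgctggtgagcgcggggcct
Cyp4a29, chr4:115241794-115242093, plus strand: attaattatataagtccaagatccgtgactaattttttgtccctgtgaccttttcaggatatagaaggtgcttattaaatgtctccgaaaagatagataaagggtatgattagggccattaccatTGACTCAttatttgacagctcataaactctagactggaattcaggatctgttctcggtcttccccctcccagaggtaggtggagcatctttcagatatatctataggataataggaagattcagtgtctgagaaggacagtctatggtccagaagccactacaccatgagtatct
Cyp3a13, Cyp4b1 and Cyp4f16 have both a match and a summit, Cyp2c55, Cyp2c65 and Cyp46a1 a summit without a match, and Cyp4a29 a match without a summit.

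Fos summits were found at the boundaries of 46 of the 93 P450 genes (49.5%, 95% Wilson interval 39.5 to 59.4), against 62.0% of all protein-coding genes. A boundary means either end of the gene, with the summit at most 1 kb away. The median P450 gene had 7 summits inside it or within 50 kb (quartiles 1 and 20), against 16 for all protein-coding genes, and 18 P450 genes (19.4%) had no summit there, against 13.7% of all genes. With 100 kb in place of 50 kb this order turned, to 8.60% of P450 genes against 10.0% of all genes. A summit inside the gene and away from its boundaries was present in 41 P450 genes (44.1%), against 54.2% of all genes. The genes with a boundary summit had a median highest boundary fold of 14.4, against 27.4 for all genes with one. Windows of neighbouring genes overlap, and the 1079 pairs of gene and summit over the 93 genes came from 800 different summits. Intervals here and below cover counting error only. They treat genes as independent, which paralogs of the same locus are not, and fragments as separate molecules, which PCR copies are not.

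**Figure D1:**
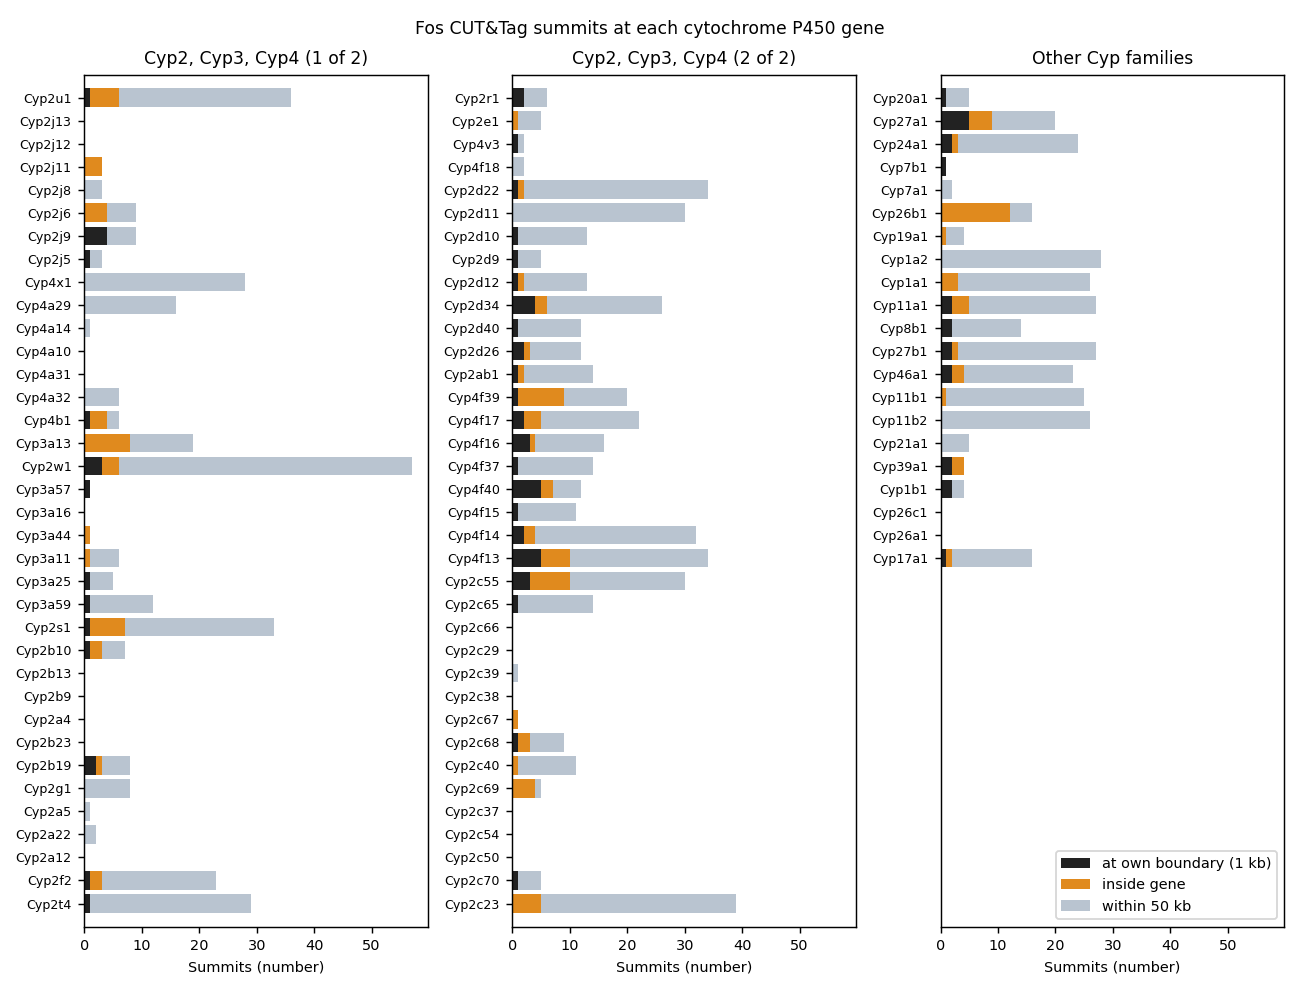
Number of Fos summits (horizontal axis) at each of the 93 P450 genes (rows, by chromosome and position), parted into summits within 1 kb of the gene's own boundary, inside it, and within 50 kb. Counts run from 0 at 18 genes to 57 at Cyp2w1, and most summits of the richest genes lie in the flanks.

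Boundary summits were present at 35 of 72 genes of the Cyp2, Cyp3 and Cyp4 families (48.6%, 37.4 to 59.9), against 11 of 21 genes of the other families (52.4%, 32.4 to 71.7). The difference was -3.77 percentage points with a 95% interval of -26.1 to 19.2, which includes differences in both directions, and it turned to 1.07 points without the Cyp2c locus of chromosome 19. Cyp2, Cyp3 and Cyp4 genes had a median of 6 summits in the window, against 16 for the other families. Counting only summits whose nearest protein-coding gene was the P450 gene itself, both medians were 2, against 4 for all protein-coding genes. The windows of Cyp2, Cyp3 and Cyp4 genes overlapped a median of 2 other protein-coding genes, and a median of 0 when the 93 P450 genes were left out. For the other families both medians were 2, and for all genes both were 3. The part of neighbouring genes in the window counts was not tested. By the nearest-gene count, 22 Cyp2, Cyp3 and Cyp4 genes (30.6%) and 5 genes of the other families (23.8%) had no summit of their own, against 22.7% of all genes.

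**Figure D2:**
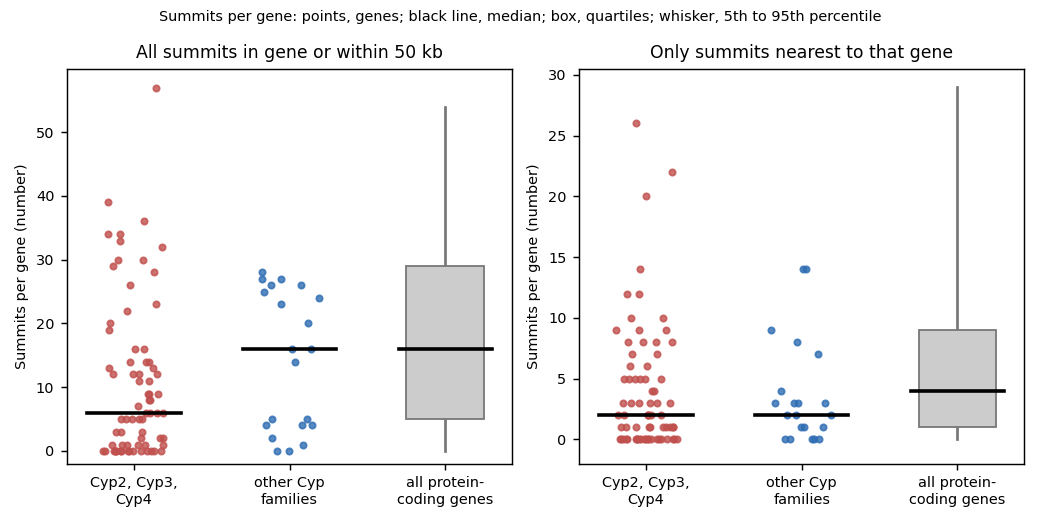
Summits per gene (vertical axis) for Cyp2, Cyp3 and Cyp4 genes, other Cyp families and all protein-coding genes, counted over the gene and 50 kb on each side (left) or only where that gene is the nearest (right). Medians are 6, 16 and 16 on the left and 2, 2 and 4 on the right.

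Among the Cyp2, Cyp3 and Cyp4 genes the clusters differed widely. A boundary summit, present at 62.0% of all protein-coding genes, lay at all 8 genes of the Cyp4f cluster on chromosome 17 (32452697 to 32947415). Their enzymes hydroxylate fatty acids and leukotriene B4. At Cyp4f39, Cyp4f37 and Cyp4f15 the boundary summit lay at the end of the gene only. Of 8 Cyp2d genes on chromosome 15 (82370527 to 82794452), 7 had a boundary summit. The Cyp4f and Cyp2d loci held 71 and 82 different summits, or 144 and 169 per Mb of window. In the other 5 clusters, boundary summits were present at 3 of 6 Cyp3a genes on chromosome 5, 5 of 13 genes of the mixed Cyp2a, Cyp2b, Cyp2f, Cyp2g, Cyp2s and Cyp2t cluster on chromosome 7, 4 of 14 Cyp2c genes on chromosome 19, 2 of 7 Cyp2j genes on chromosome 4 and 1 of 7 genes of the Cyp4a, Cyp4b and Cyp4x cluster on chromosome 4. Their summits per Mb were 34.6 for Cyp3a, 65.7 for the mixed Cyp2 cluster, 39.2 for Cyp2c, 21.0 for Cyp2j and 102 for Cyp4a, Cyp4b and Cyp4x. The rate over whole chromosomes, regions far from genes included, was 69.7. Rates of the loci include the 50 kb flanks, where genes outside the P450 set also lie. Of the 34 window summits of Cyp2d22, 3 were nearest to it, and of the 28 of Cyp4x1, 1, against 20 of 26 for Cyp2d34. The part of flanking genes in these rates was not tested. Over the windows of all 93 P450 genes together there were 91.4 different summits per Mb, with 86.6 for the Cyp2, Cyp3 and Cyp4 families and 104 for the other families. Per gene, the median was 5.43 summits per 100 kb of window for P450 genes, against 11.1 for all protein-coding genes. It was 5.12 for the Cyp2, Cyp3 and Cyp4 families and 13.7 for the other families. By subfamily, 0 of 4 Cyp2a and 0 of 5 Cyp4a genes had a boundary summit, and 2 of 5 Cyp2b genes did. Genes whose symbols end in a letter are outside these counts.

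The 5 clusters other than Cyp2d and Cyp4f held long stretches without any summit. In the mixed Cyp2 cluster, 865 kb between 25902689 and 26767447 on chromosome 7 held none, and Cyp2b13, Cyp2b9, Cyp2a4 and Cyp2b23 lie there. In the Cyp2c cluster the longest such stretch, 378 kb, spans Cyp2c29, Cyp2c38 and Cyp2c39, and in the Cyp2j cluster 321 kb from the edge of the window span Cyp2j12 and Cyp2j13. The Cyp3a cluster had one of 314 kb around Cyp3a16, and the Cyp4a cluster one of 191 kb over Cyp4a14, Cyp4a10, Cyp4a31 and Cyp4a32. In the Cyp2d and Cyp4f clusters the longest stretches, 103 and 84.5 kb, held no whole P450 gene. Tandem P450 paralogs are similar in sequence, and how reads that fit several copies were placed is not given in the sources used here, so the part of read placement in these stretches was not tested.

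**Figure D3:**
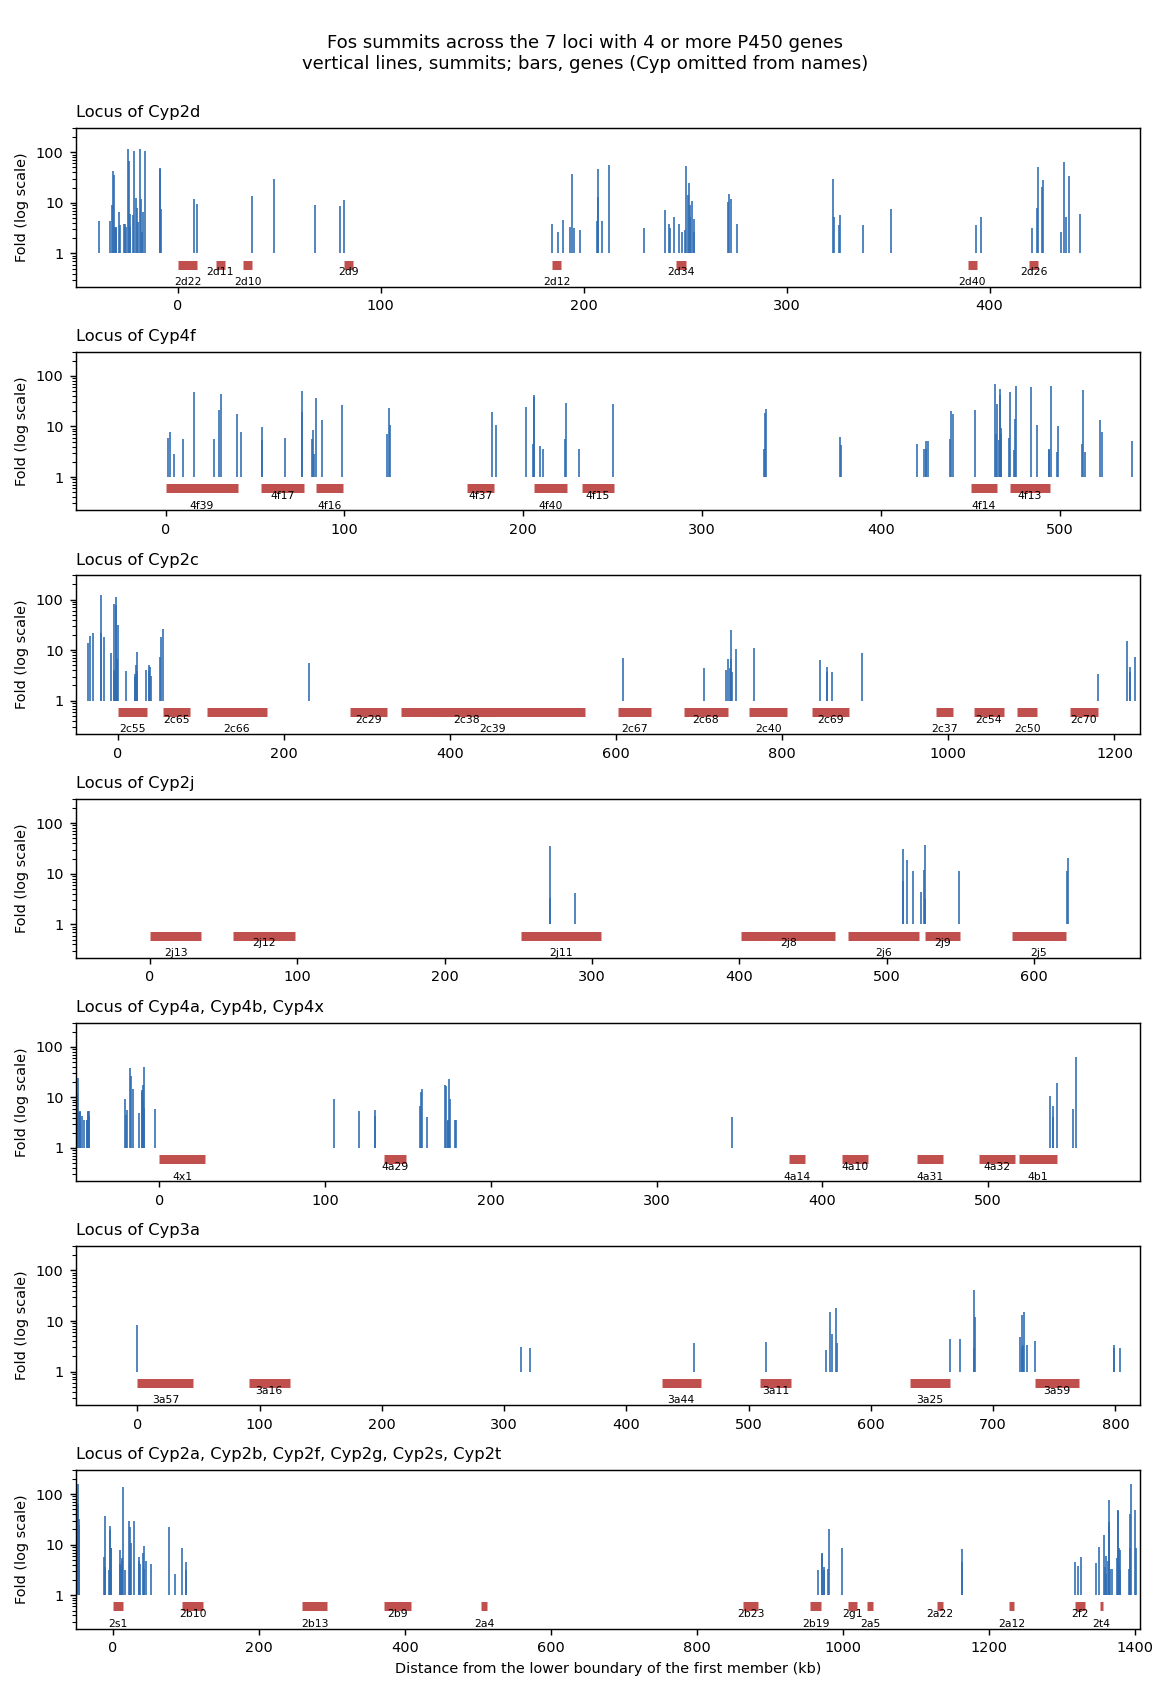
Fold of each Fos summit (vertical axis, log scale) along the 7 loci with at least 4 P450 genes, by distance in kb from the lower boundary of the first gene. Gene bars are drawn under the summits, and the panels show gaps such as the 865 kb of the mixed Cyp2 cluster. The longest gap of the Cyp4f locus is 84.5 kb.

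Summits of the Cyp2c cluster, whose enzymes make epoxides of arachidonic acid and oxidise drugs, were concentrated at its low-coordinate end. Cyp2c55 and Cyp2c65, both known from the mouse gastrointestinal tract, had 30 and 14 summits in their windows, of which 22 and 3 were nearest to the gene itself. The strongest boundary summit of Cyp2c55, at 39006934 on chromosome 19, had a fold of 31.0 and 128 fragments (95% Poisson interval 107 to 152). A stronger one lay 1627 bp from the gene, outside the 1 kb limit, with a fold of 110 and 457 fragments (416 to 501). The strongest boundary summit of Cyp2c65, at 39060958, had a fold of 25.7 and 106 fragments (86.8 to 128). The next gene, Cyp2c66, had no summit within 50 kb, nor had Cyp2c29, Cyp2c38, Cyp2c37, Cyp2c54 and Cyp2c50. Farther along, Cyp2c68 and Cyp2c70 had weak boundary summits, with folds of 6.73 and 3.37, while Cyp2c40, Cyp2c67 and Cyp2c69 had summits inside the gene and none at a boundary. Cyp2c39 had 1 summit in its window, 45179 bp away. Cyp2c23, which lies apart on the same chromosome, had 39 summits in its window and 5 inside the gene, but none within 1 kb of a boundary.

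In the mixed Cyp2 cluster most summits lay around the outer genes. Cyp2s1, an epithelial P450 induced through the aryl hydrocarbon receptor, had the strongest boundary summit of any P450 gene, at 25816864 on chromosome 7, with a fold of 138 and 571 fragments (525 to 620). That fold is higher than the highest boundary fold of 95.7% of the protein-coding genes with a boundary summit. With 26, Cyp2s1 also had the most summits nearest to itself of any P450 gene, ahead of Cyp2c55 with 22 and Cyp2d34 with 20. At the other end, Cyp2t4 and Cyp2f2 had 29 and 23 summits in their windows, of which 2 and 3 were nearest to the gene itself, and boundary folds of 9.14 and 4.57. Between them, Cyp2b13, Cyp2b9, Cyp2a4, Cyp2b23 and Cyp2a12 had no summit within 50 kb.

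Among Cyp4f genes the highest boundary fold ranged from 9.86 at Cyp4f17 to 63.7 at Cyp4f13. The Cyp4f13 summit, at 32947574 on chromosome 17, had 264 fragments (233 to 298). Cyp4f40 had a fold of 41.1 and 170 fragments (145 to 198), Cyp4f16 a fold of 37.3 and 154 fragments (131 to 180), and Cyp4f14 a fold of 27.4 and 113 fragments (93.1 to 136). Inside Cyp4f14 lay a stronger summit, with a fold of 70.2 and 291 fragments (259 to 326). The intervals of Cyp4f40 and Cyp4f16 overlap, while that of Cyp4f13 lies above both. Cyp4f18, a family member alone on chromosome 8, had 2 summits in its window and none at a boundary. Among Cyp2d genes, related to the human drug-metabolising enzyme CYP2D6, Cyp2d34 and Cyp2d26 had folds of 53.9 and 50.3 with 223 (195 to 254) and 208 (181 to 238) fragments. Cyp2d12 and Cyp2d40 had folds of 3.85 and 3.61, and Cyp2d11 had no boundary summit. Cyp2d22 had 34 summits in its window, and the strongest of these, with a fold of 116, lay inside Ndufa6.

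The Cyp3a cluster of chromosome 5, which holds the main drug-metabolising Cyp3a enzymes of mouse liver, had only weak boundary summits. Their folds were 8.18 at Cyp3a57, 4.33 at Cyp3a25 and 4.09 at Cyp3a59, each with 33 fragments or fewer. A stronger summit lay 19535 bp from Cyp3a25, its nearest gene, with a fold of 41.4 and 171 fragments (146 to 199). Cyp3a11, a classical target of the pregnane X receptor in liver, had 1 summit inside the gene and 5 in its flanks, the strongest with a fold of 17.8 at 36787 bp. In the cluster of Cyp4a genes, which encode fatty acid omega-hydroxylases controlled by Ppara in liver, Cyp4a10 and Cyp4a31 had no summit within 50 kb and Cyp4a14 had 1. That 1 summit, with a fold of 4.09, lay 367 bp from Cyp4a30b, a gene outside the 93 because its symbol ends in a letter. Of the 7 genes counted in that cluster, Cyp4b1, at one end, was the one with a boundary summit. The strongest summit in the window of Cyp4b1 lay 11654 bp away with a fold of 64.0 and 265 fragments (234 to 299). Cyp4x1, at the other end, had 28 summits in its window, of which 1 was nearest to it. In the Cyp2j cluster, Cyp2j11 had 3 summits, all inside the gene, the strongest with a fold of 35.1 and 145 fragments (122 to 171). Cyp2b10, the phenobarbital-inducible enzyme of mouse liver, had a boundary fold of 8.66, and Cyp2b19, an epoxygenase of keratinocytes, 6.98.

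Of the remaining Cyp2, Cyp3 and Cyp4 genes, Cyp2j9 reached a fold of 36.8 with 152 fragments (129 to 178) at its end. The summit at the start of Cyp2j9 was weaker, with a fold of 11.1 and 45 fragments (32.8 to 60.2). Cyp2r1, a vitamin D 25-hydroxylase, had 28.4 with 117 fragments (96.8 to 140). Cyp2w1, known from human fetal colon and colorectal tumours, had the most summits in its window, 57, but only 8 were nearest to it and its boundary fold was 9.86. Cyp2u1, a fatty acid hydroxylase, had 36 summits in its window and a boundary fold of 23.1. Cyp2e1, the ethanol-inducible enzyme of liver, had no boundary summit and 5 summits in its window. Just inside the 1 kb limit were Cyp2u1 and Cyp4f37, whose nearest summits lay 865 and 969 bp from a boundary, and just outside it Cyp3a13 and Cyp11b1, at 1278 and 1350 bp.

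**Figure D4:**
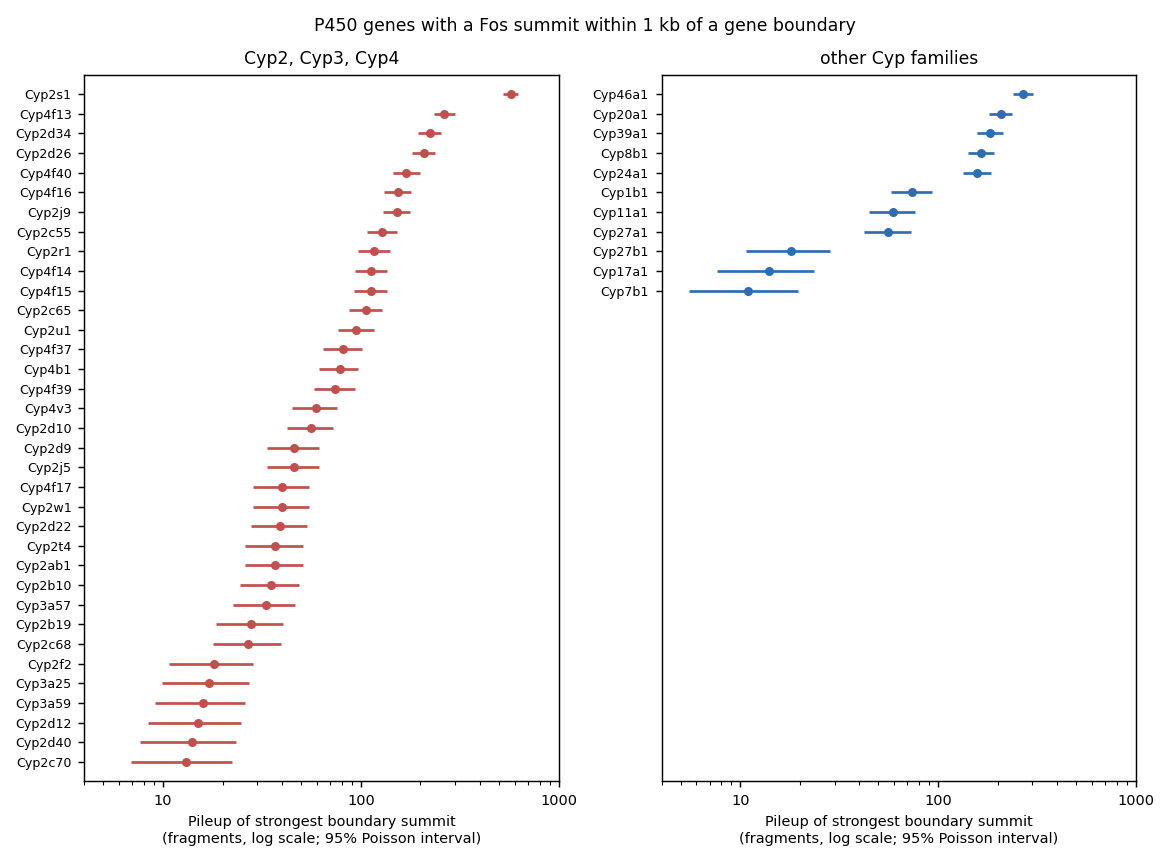
Pileup of the strongest boundary summit (fragments, log axis, with 95% Poisson intervals) of the 35 Cyp2, Cyp3 and Cyp4 genes and the 11 genes of other families that had one. Cyp2s1 with 571 fragments stands above every other gene, and Cyp7b1 with 11 is lowest.

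Boundary summits by role are small counts, to be read beside the 62.0% of all protein-coding genes that had one. Genes of vitamin D metabolism had boundary summits at 3 of 3. Cyp24a1, which inactivates the hormone and is a classical target of its receptor, reached a fold of 38.2 and 158 fragments (134 to 185) at its boundary, and a stronger summit lay 22858 bp from the gene, with a fold of 87.6 and 363 fragments (327 to 402). Cyp27b1, which makes the active hormone, reached 4.57 with 18 fragments (10.7 to 28.4). The strongest of its 27 window summits, with a fold of 123, lay 63 bp from Cdk4. Cyp2r1, of the Cyp2 family, is the third gene.

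Genes of bile acid and cholesterol metabolism had boundary summits at 5 of 6, beside 62.0% of all genes. Cyp46a1, the cholesterol 24-hydroxylase best known from neurons, had a fold of 64.9 with 269 fragments (238 to 303), the highest of the families outside Cyp2, Cyp3 and Cyp4. Cyp39a1, an oxysterol 7-alpha-hydroxylase, had 44.3 with 183 fragments (157 to 212), at a summit 7 bp from Slc25a27. Cyp8b1, the sterol 12-alpha-hydroxylase that directs synthesis to cholic acid, had 39.9 with 165 fragments (141 to 192). Cyp27a1, the mitochondrial sterol 27-hydroxylase, reached only 13.7 with 56 fragments (42.3 to 72.7) at a boundary. Inside that gene, at 74726935 on chromosome 1, lay a summit with a fold of 209 and 867 fragments (810 to 927), the strongest summit whose nearest gene was a P450 gene. Cyp7b1 had a single summit in its window, with a fold of 2.89 and 11 fragments (5.49 to 19.7). Cyp7a1, the rate-limiting enzyme of bile acid synthesis in liver, had none within 1 kb and 2 in its window.

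Steroid hormone genes had boundary summits at 2 of 6, beside 62.0% of all genes. Cyp11a1, which cleaves the cholesterol side chain, had a fold of 14.4 with 59 fragments (44.9 to 76.1), and Cyp17a1, the 17-alpha-hydroxylase, 3.61 with 14 fragments (7.65 to 23.5). Cyp11b1, Cyp11b2, Cyp19a1 (aromatase) and Cyp21a1 had none. Cyp11b1 and Cyp11b2 still had 25 and 26 summits in their windows, and the strongest in the window of Cyp11b2, with a fold of 343 and 1423 fragments (1350 to 1499), lay 36069 bp from Cyp11b2 and 10596 bp from Ly6m, its nearest gene. Cyp21a1 had 5 and Cyp19a1 4 summits in their windows.

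Retinoic acid is broken down by the Cyp26 enzymes, and 0 of these 3 genes had a boundary summit, beside 62.0% of all genes. Cyp26a1 and Cyp26c1, neighbours on chromosome 19, had no summit within 50 kb. Cyp26b1 had 12 summits inside the gene, the most of any P450 gene, and 4 in the flanks. The strongest nearest to Cyp26b1 had a fold of 11.1 and 45 fragments (32.8 to 60.2). In family 1, the xenobiotic enzymes induced through the aryl hydrocarbon receptor, Cyp1b1 reached a fold of 18.0 with 74 fragments (58.1 to 92.9) at a boundary, and Cyp1a1 and Cyp1a2 had no summit there. The windows of Cyp1a1 and Cyp1a2 held 26 and 28 summits, and the strongest in both, with a fold of 60.1, lay inside Csk. Cyp20a1, without an assigned function, had a boundary summit of 207 fragments (180 to 237).

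Strand was known for the 73 P450 genes with an entry in the RefSeq promoter table. Of these, 27 had boundary summits at the start side only, 6 at both sides and 4 at the end only (Cyp4f39, Cyp4f37, Cyp4f15 and Cyp2b19). A summit lay within 1 kb of a start in the table at 36 of the 73 genes (49.3%), against 62.2% of all protein-coding genes with an entry. The shares were 28 of 60 (46.7%) for Cyp2, Cyp3 and Cyp4 genes and 8 of 13 (61.5%) for the other families. Cyp3a13, Cyp2j6 and Cyp1a1 had a summit at a start without one at a gene boundary, because their start in the table lies inside the gene. Of these, Cyp3a13, a Cyp3a enzyme expressed in mouse intestine, had the strongest, at -136 bp from its start with a fold of 90.0 and 373 fragments (336 to 413). The strongest of Cyp2j6 lay at -28 bp with a fold of 31.3, and that of Cyp1a1 at -899 bp with a fold of 8.66, negative positions being upstream.

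The AP-1 motif, searched as TGANTCA, which reads the same on both strands, was found in the promoters of 6 of the 73 P450 genes (8.22%), against 8.19% of all protein-coding genes with an entry. In the Cyp3a13 promoter printed above, the centre of the first match lies 48 bp from the summit and that of the second 133 bp from it. In Cyp4b1, expressed mainly in lung, the match lies 11 bp from a summit with a fold of 19.0 and 78 fragments (61.7 to 97.3). In Cyp4f16 the distance is 156 bp, and in Cyp2c70, with a fold of 3.37, it is 166 bp. Cyp4a29 and Cyp4f37 had a match and no summit within 1 kb of the start. A match was present in 4 of 36 P450 genes with a summit at a start and 2 of 37 without, while over all genes the shares were 6.34% with such a summit and 11.2% without. Most P450 starts with a summit, such as those of Cyp46a1, Cyp2c55 and Cyp2c65, had no match in these 300 bases. Summits counted at a start lie up to 1 kb from it, so some fall outside the bases searched. The strongest of Cyp2s1 (-339 bp), Cyp1b1 (-810 bp) and Cyp27b1 (855 bp) are examples, and sequence under them was not searched. These shares therefore do not show whether such summits have a motif.

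The cyclic AMP response element TGACGTCA, which reads the same on both strands and holds no AP-1 match within it, was in 0 of the 73 genes' promoters, against 2.58% of all. The core of the xenobiotic response element, GCGTG on either strand, was in 16 (21.9%), against 41.9% of all, and Cyp1a1 and Cyp1b1 were among the 16. P450 promoters were poor in CpG, with a median of 3 CpG per 300 bases and 49.7% G and C, against 14 and 56.3% for all genes. The P450 genes with a summit at a start had a median of 3.5 CpG, against 21 for all genes with one. The other P450 families had a median of 7 CpG, and Cyp2, Cyp3 and Cyp4 genes 2.

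**Figure D5:**
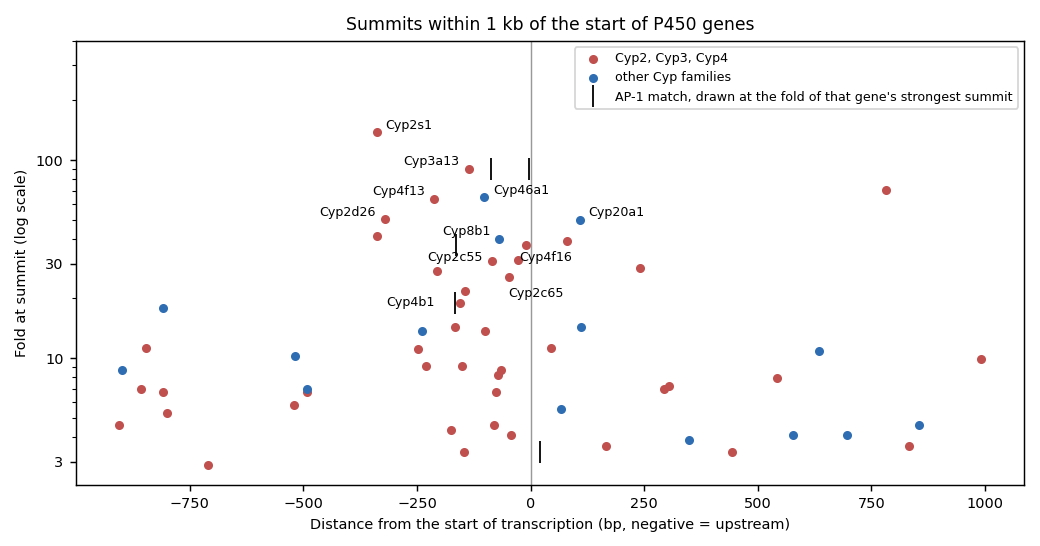
Fold (log axis) of every summit within 1 kb of a P450 start against its distance from the start in bp, with negative values upstream, each summit drawn at 1 start where a gene has several. Black ticks mark the centre of AP-1 matches, 11 bp from the Cyp4b1 summit and 48 bp from the Cyp3a13 summit.

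Fos summits were also counted at genes for P450 redox partners, haem metabolism and regulators of P450 genes. A boundary summit was present at 10 of 10 genes for redox partners and haem metabolism, against 62.0% of all protein-coding genes. The median was 24.5 summits in the window, against 16 for all protein-coding genes. The highest boundary folds were 137 at Cyb5a (cytochrome b5), 69.3 at Fdxr (ferredoxin reductase) and 48.8 at Hmox1 (haem oxygenase 1). Por itself had 34.4, with 29 summits inside the gene. The lowest boundary fold was 4.33 at Cyb5r3, with 17 fragments (9.90 to 27.2), where the strongest window summit had a fold of 72.9. Of the regulators, 15 of 15 had a boundary summit, with a median of 40 summits in the window. Both lists were chosen with earlier results of these data known, so these counts describe them and do not test enrichment. Window counts were not adjusted for gene length. Arnt, the partner of the aryl hydrocarbon receptor, had a fold of 139, Nr1i2, the pregnane X receptor, 83.5 and Ahr itself 71.4. The lowest boundary folds among regulators were those of Ahrr and Rara, both 4.09 with 16 fragments (9.15 to 26.0). The strongest summits in the windows of these 2 genes had folds of 131 and 107. The vitamin D receptor gene Vdr had 84 summits in its window and Hnf4a 87. Of 3 P450 genes with other kinds of symbol, Cyp51, which demethylates lanosterol, had a boundary fold of 70.2. Tbxas1 and Ptgis, the thromboxane and prostacyclin synthases, had no boundary summit, but 49 and 20 summits in their windows. Among 5 P450 genes whose symbols end in a letter, Cyp4a30b had a boundary summit, with a fold of 4.09, and Cyp4a12a, Cyp4a12b, Cyp3a41a and Cyp3a41b had none.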

How the data were processed

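The submitters' processing notes name Bowtie2, MACS2 and mm10, with neither versions nor settings. The share of each of the 4 libraries in the list was not given in the sources used here. In the deposited list, fold is a linear ratio to the caller's background, significance is given as −log10 q (lowest value 1.80), and the score equals 10 times that figure without its decimals. All folds were whole multiples of 0.2405 within 0.000076 steps, the spacing of (pileup + 1) over (background + 1) with a background of 3.16 fragments per base, which gave the pileup. Intervals are exact 95% Poisson for pileups and 95% Wilson for shares. The interval of the difference of shares combines the 2 Wilson intervals.

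Summits were assigned to protein-coding genes of the autosomes and chromosome X in the RefSeq gene table of GRCm38.p6 with Python 3.11.15, numpy 2.4.6, pandas 2.3.3 and scipy 1.17.1. Neighbouring P450 genes up to 500 kb apart formed a locus. Assignment and pileup were tested on simulated data. The members and lists were chosen with earlier results of these data known. The text names every gene outside Cyp2, Cyp3 and Cyp4. Of those 3 families it names the 10 genes with the highest boundary fold and the 5 with the most summits, and of each pathway list the 3 with the highest fold and those without a boundary summit. Other genes, and the promoters printed, were chosen after their values were seen. P450 genes without a promoter entry were Cyp11b1, Cyp11b2, Cyp17a1, Cyp21a1, Cyp24a1, Cyp2c23, Cyp2c54, Cyp2d12, Cyp2d22, Cyp2d34, Cyp2g1, Cyp2u1, Cyp39a1, Cyp4a10, Cyp4a14, Cyp4a31, Cyp4f17, Cyp4x1, Cyp7a1 and Cyp7b1. The planned comparison of protein sequences was not run, and 1 marker gene is not reported here.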

Additional observations from a re-analysis of the deposited data

How the results depend on the processing

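No paired analysis was possible because the peak list has no column per library, and for the same reason no library could be left out. The count of 46 P450 genes with a boundary summit ran from 37 to 49 over 8 alternatives, each within 1.5 times of it. With starts of the promoter table, an alternative chosen after seeing the data, it was 36 of 73. The difference in boundary share between Cyp2, Cyp3 and Cyp4 genes and the other families changed sign with −log10 q of at least 5 (1.59 points) and 10 (2.18), without summits within 1 kb of a gene outside the P450 set (5.75) and without the Cyp2c locus (1.07), and ran from -10.2 to 1.07 over 7 omitted loci. The median of 7 summits per window was 3 with 20 kb, 15 with 100 kb, 4 with −log10 q of at least 10 and 2 for nearest summits only, against 8, 28, 9 and 4 for all genes. The difference of medians, -10.0, was -1 with 20 kb, -16.0 with 100 kb, -6 at a −log10 q minimum of 5 and -4 at 10, -5.50 with 1 summit per region and 0 for nearest summits only. Of the 18 P450 genes without a summit, 8 had none within 100 kb, which is 8.60% of P450 genes against 10.0% of all genes, so the order of the shares (19.4% against 13.7% at 50 kb) turned. Smaller windows and stricter limits count fewer summits by construction.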
